A study of Arabidopsis thaliana with 8 samples.

Results

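The tiles of plates TA64 to TA99 make up the later, higher-numbered plates of the TA set on a tiling array of Arabidopsis thaliana chromosome 4. They were chosen by name alone within the array, as every tile on these 36 plates with a value in all 4 replicates. The choice of the plates themselves was made because earlier TA plates held long stretches of low tiles, so their level is described here without a test. Of 3456 wells, 3329 held values in all 4 replicates and 127 were blank, out of 21285 such tiles among 21761 tiles named by plate and well. The names give a plate set, a plate number, a row letter and a column number. They give no gene and no position on the chromosome, and the gene table used here holds no tile names, so neither sequence nor annotation is given for a tile.

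Histone H3 dimethylated at lysine 4 (H3K4me2) is a chromatin mark laid down by histone methyltransferases. In plants it lies mostly over genes, and it is scarce over transposons and other silent repeats, which carry H3K9 methylation and DNA methylation instead. Chromosome 4 of Arabidopsis has both kinds of chromatin: gene-rich arms, and repeat-rich chromatin around the centromere and in a knob on the short arm. A tiling array reads such a chromosome as a row of adjoining fragments, so that a marked gene spanning several fragments appears as several tiles of like ratio.

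All samples were of 1 group. Whole seedlings of the reference accession Col-0, with no treatment, were grown for 10 days in liquid MS medium, and chromatin was immunoprecipitated (IP) with an anti-H3K4me2 antibody and set against input DNA on the same array. The 4 replicates are dye swaps of 2 arrays each, and both arrays of a swap carried the same deposited values, so n = 4. The labels ascribe the IP chromatin of replicates 2, 3 and 4 to 1 seedling batch and give each input a batch of its own, so the spread between replicates may be technical. The labels do not say which of IP and input is the numerator of the ratio, so "above" and "below" follow the deposited sign, with 0 set at the median tile of the array in each replicate. Values are log ratios taken as log2, a base that is inferred and not stated. Intensities were not analysed here, so signal over background is unknown, and the number of arrays limits the precision.

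Taken as a whole, TA64 to TA99 sat at the level of the array's median tile. The median log2 ratio of its tiles was 0.00, 0.02, 0.00 and 0.03 in replicates 1 to 4, a mean of 0.01 ± 0.01 (SD, n = 4). The 4 replicates lay within a narrow band around 0. Within each slide pair of the titles the median was 0.01 in replicates 1 and 2 and 0.02 in replicates 3 and 4. A level of 0 here hides a wide spread. Single tiles ran between -4.04 and 5.06, with an interquartile range of 1.62, and 81.9% of the tiles had the same sign in all 4 replicates. The median SD of a tile over replicates was 0.22.

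In the limma fit over all 21285 tiles, 1342 of the 3329 tiles were called above the median tile and 1313 below it (adjusted p under 0.05). These are 40.3% and 39.4% of its tiles, against 42.1% called above and 41.9% called below over the whole array. The fit took the 4 replicates as independent, although replicates 1 and 3, and 2 and 4, were much alike (correlations of 0.971 and 0.983). Its adjusted p values may thus be too small. Since the plates were chosen on the same ratios, nothing is read from these counts. They also rest on the centring: uncentred, 604 were called above 0 and 1771 below, and with centring on the mode 562 and 2142, so that the share above among all calls was 25.4% and 20.8%, against 50.5% with the median. Of all tiles of the array, 19.3% were called above and 52.8% below uncentred, and 17.2% and 63.5% on the mode. The 674 tiles called in neither direction lay close to the median tile, with a median size of 0.14 and a largest of 0.61.

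Plates differed from one another far more than the replicates of a plate did. In all 4 replicates 17 of the 36 plates had a median above 0 and 13 a median below 0, and 6 had both signs. The highest was TA90, with medians of 0.74, 1.06, 0.78 and 1.05 in replicates 1 to 4, a mean of 0.91 ± 0.17. TA81 followed at 0.89 ± 0.15 and TA94 at 0.83 ± 0.11. On TA90 replicates 2 and 4 were the higher pair, and all 4 replicates were well above 0. The lowest was TA84, with medians of -0.82, -0.84, -1.0 and -0.83, a mean of -0.88 ± 0.08. TA99 had -0.71 ± 0.09 and TA97 -0.65 ± 0.11. No plate had a median below -1 in all 4 replicates. The SD of the replicates of a plate ranged from 0.02, on TA95, to 0.19, on TA65, against an SD between plate medians of 0.49 ± 0.07. In the order of levels, 1 of the 35 neighbouring ranks was separated without overlap of the replicates, TA99 from TA84 at the low end. That count does not pair the plates by replicate, although they share arrays. Taken by replicate, some next ranks kept their order in all 4 replicates and others did not. Distant ranks were not compared in this way.

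**Figure D1:**
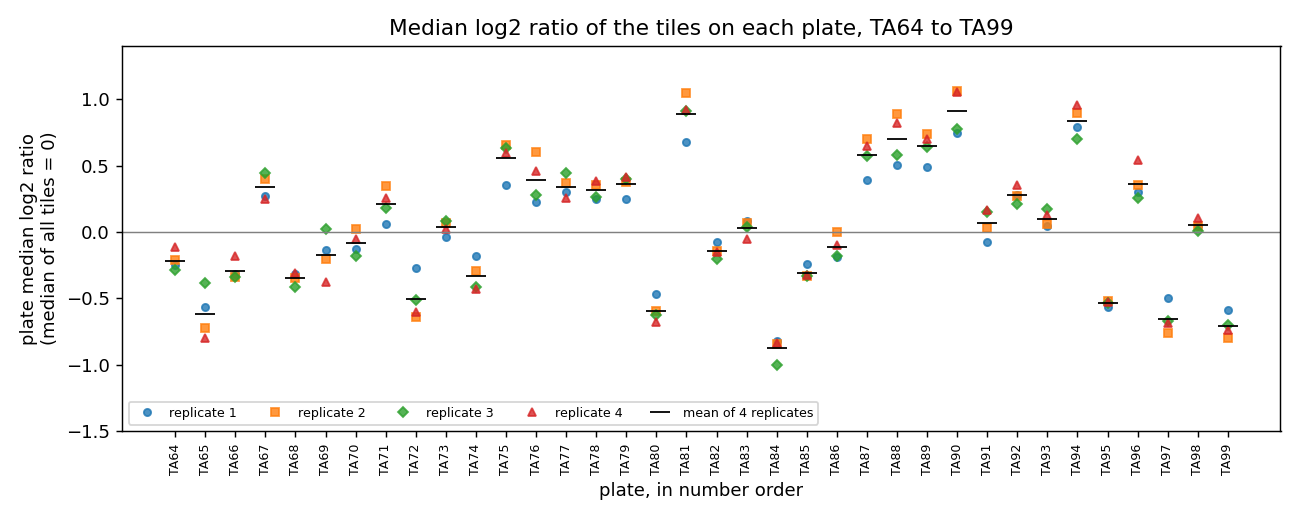
Median log2 ratio of the tiles on each of the plates TA64 to TA99, in plate order, with 1 point for each replicate and a bar for their mean; 0 is the median tile of the array. TA90, TA81 and TA94 are highest at 0.91, 0.89 and 0.83, and TA84 is lowest at -0.88, with plates of opposite sign often side by side.

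Plate level did not pass smoothly from one plate to the next. Across the 35 neighbouring pairs the correlation of plate medians was 0.04, and the mean step was 0.53. TA81 exceeded the plate before it, TA80, by 1.48 ± 0.23, and from TA81 to TA82 the median changed by -1.03 ± 0.19. From TA94 to TA95 it changed by -1.37 ± 0.11. These steps are several times the SD of the replicates. Some plates of like level were adjacent all the same. The 5 plates TA75 to TA79 were all above 0, with a joint median of 0.41 ± 0.10 over 472 tiles. The 4 plates TA87 to TA90 had 0.73 ± 0.15 over 376 tiles. The 7 plates TA80 to TA86 had -0.23 ± 0.04, in spite of the high plate TA81 among them. These stretches were picked from the plate medians and have no test.

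The edge of the set of plates was placed with the plate levels known, so a step in level there follows from the choice. TA64, the first plate inside, had a median of -0.22 ± 0.07, against -1.30 ± 0.20 on TA63, just outside. At the border itself, the first 12 wells of TA64 (row A) had a median of 0.42 ± 0.26, against -0.50 ± 0.16 in the last 12 of TA63 (row H). The next row of TA64, row B, was at -0.77 ± 0.06. Steps of this kind also lay inside the set, such as 1.48 ± 0.23 from TA80 to TA81. The last plate inside, TA99, is also the last of the TA set. Its final 12 wells had a median of -1.17 ± 0.25.

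Most plates held stretches on both sides of 0. Of the 36 plates, 30 had plate rows of 12 wells with medians on both sides, and the median range between the rows of a plate was 1.62. The widest was on TA71. Its row G had medians of -2.07, -2.04, -1.70 and -2.12 in replicates 1 to 4, a mean of -1.98 ± 0.19, and the next row, H, 1.48, 1.70, 1.51 and 1.13, a mean of 1.45 ± 0.24. The medians of row G were thus below 0 and those of row H above 0 in every replicate, while single tiles of the 2 rows overlapped. Within row G the tiles were low in columns 1 to 5, with TA71G03 lowest at -3.41 ± 0.33, and TA71G08, in the middle, was at 1.88 ± 0.12. By contrast TA80 was evenly low, with row medians between -0.84 and -0.31. TA68 was as even, between -0.76 and -0.19, and had 17 of its 96 wells blank. TA94, one of the 3 highest plates, had 20 blank wells, the most of any. Blank wells were 3.67% of the wells of TA64 to TA99 and 1.5% of those of the TB plates. Their part in the plate levels was not tested.

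**Figure D2:**
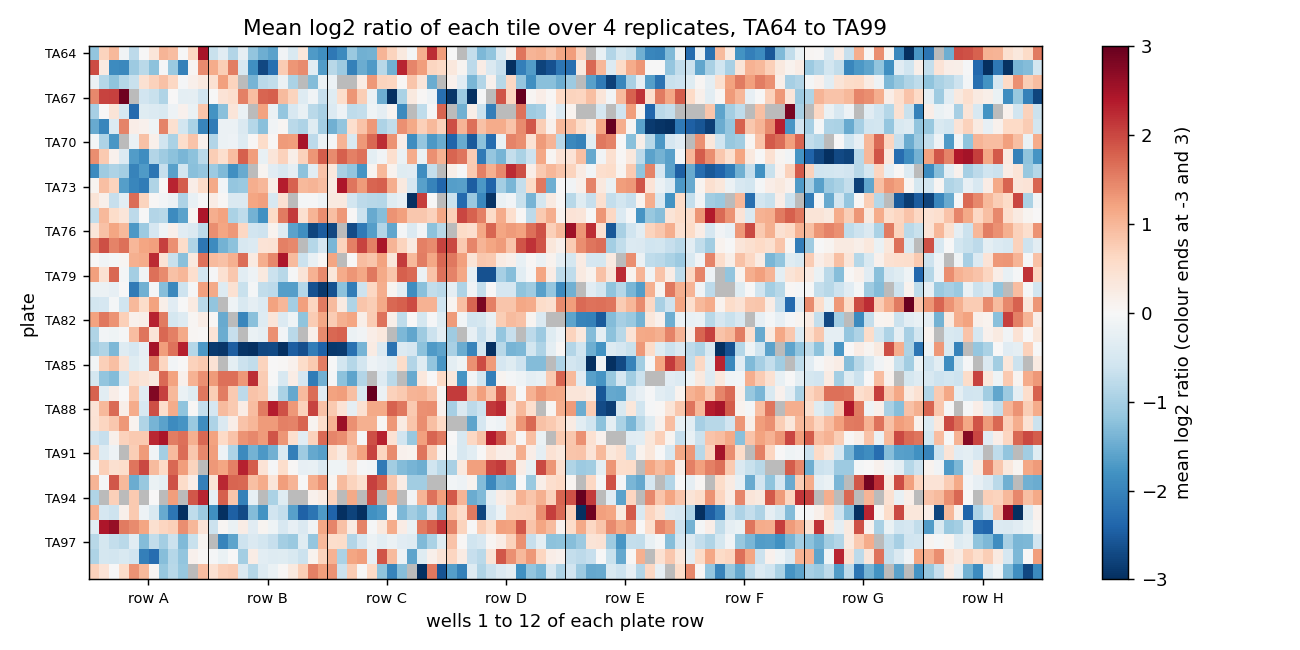
Mean log2 ratio over 4 replicates of every tile of TA64 to TA99, with a line for each plate from top to bottom and its 96 wells from row A to row H from left to right; red is above 0, blue below, grey blank, and the colours end at -3 and 3. Red and blue stretches of several wells alternate on most plates, and row B of TA84 is an unbroken blue stretch.

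The position of a well on its plate carried little of this spread. Over all 36 plates the median by row letter lay between -0.16 and 0.21, and by column number between -0.12 and 0.13. Even-numbered plates had a median of -0.03 ± 0.05 and odd-numbered plates 0.06 ± 0.06, and tiles below -2 were about as many on even plates, 81, as on odd plates, 80.

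The highest tile of TA64 to TA99 was TA94E02. It had log2 ratios of 5.04, 5.33, 4.71 and 5.18 in replicates 1 to 4, a mean of 5.06 ± 0.26. It was also the highest tile of the array. The wells on either side were high as well, TA94E01 at 1.90 ± 0.38 and TA94E03 at 2.10 ± 0.15. TA69E05 had 2.95, 3.89, 2.95 and 3.66, a mean of 3.36 ± 0.48, with replicates 2 and 4 higher than 1 and 3. It also stood between 2 high tiles, TA69E04 at 1.15 ± 0.52 and TA69E06 at 1.09 ± 0.18. TA87C05 was a lone peak. It had 2.95, 3.76, 3.17 and 3.72, a mean of 3.40 ± 0.41, and its neighbours were just below 0, TA87C04 at -0.45 ± 0.35 and TA87C06 at -0.19 ± 0.16.

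The lowest tile was TA67D03, with -4.02, -4.17, -4.17 and -3.80 in replicates 1 to 4, a mean of -4.04 ± 0.17. TA67C07, 8 wells before it on the same plate, had -3.73, -3.86, -4.01 and -3.88, a mean of -3.87 ± 0.11. The 4 replicates of each of these tiles were nearly alike. TA67 also held 2 of the 8 highest tiles, TA67D08 at 3.04 ± 0.10 and TA67A04 at 2.93 ± 0.29. The lowest and one of the highest tiles of the plate were thus 5 wells apart, and the plate's median, 0.34 ± 0.09, shows neither.

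TA95 held the sharpest borders. Between TA95E02 and TA95E03, adjoining wells, the mean ratio went up by 6.24 ± 0.39. TA95E02 had -3.25, -3.58, -3.15 and -3.30, and TA95E03 2.52, 3.12, 2.98 and 3.04. From TA95G06, at -3.67 ± 0.39, to TA95G07, at 2.30 ± 0.05, the step was 5.97 ± 0.39. From TA95H09, at 2.62 ± 0.12, to TA95H10, at -3.45 ± 0.12, the ratio dropped by 6.07 ± 0.12. Each of these steps had the same direction in all 4 replicates and many times the SD of the replicates. On TA74, the step from TA74C09, at -3.51 ± 0.29, to TA74C10, at 2.08 ± 0.28, was of the same kind. Steps of more than 3 between adjoining wells were few, 33 of 3215 pairs (1.03%), and made up 48 of 9318 pairs (0.52%) on the TB plates. The median size of a step was 0.58 in TA64 to TA99 and 0.50 on the TB plates.

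**Figure D3:**
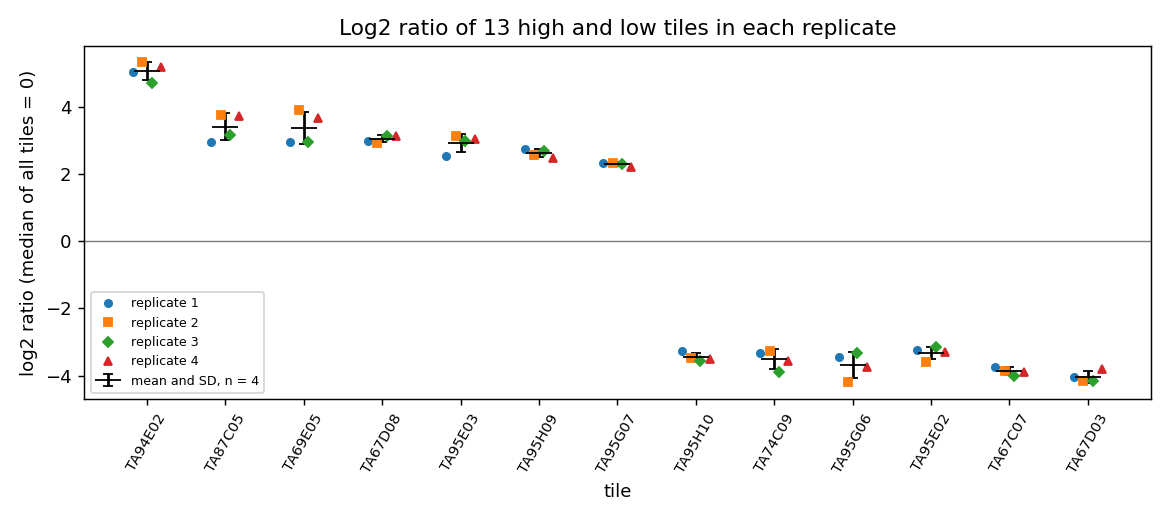
Log2 ratio of selected high and low tiles of TA64 to TA99 in each of the 4 replicates, with the mean and SD (n = 4) in black; 0 is the median tile of the array. The replicates of a tile lie close together beside the distance from 0, from 5.06 for TA94E02 to -4.04 for TA67D03, and the pairs TA95E02 and TA95E03, TA95G06 and TA95G07, and TA95H09 and TA95H10 are adjoining wells of opposite sign.

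Very low tiles were gathered on few plates. Of the 22 tiles with a mean below -3, TA95 held 8 and TA84 held 4, and 26 plates held none. These 22 were 0.66% of the tiles, against 3.12% over the whole array and 0.14% on the TB plates. The 161 tiles below -2 lay on 30 plates, and the 3 plates with the most held 34.2% of them. They were 4.84% of the tiles, against 12.6% over the whole array and 1.36% on the TB plates. As adjoining tiles were alike, low tiles are not independent, and their gathering was not tested. The 93 tiles above 2 were spread more evenly, over 32 plates, with 19.4% on the 3 plates with the most and at most 7 on a plate, TA88. On TA84 many of its low tiles lay in 1 block, a run of 18 wells below 0, although its lowest tile, TA84F04 at -3.39 ± 0.23, lay outside it. All 12 wells of its row B were below -2, from -2.07 at TA84B11 to -3.17 at TA84B08, and the median of the row was -3.12, -2.25, -3.21 and -2.29 in replicates 1 to 4. Replicates 1 and 3 were lower than 2 and 4, and the mean, -2.72 ± 0.52, was the lowest of the 288 plate rows of TA64 to TA99. The block began at TA84A11, directly after the high tile TA84A10 at 2.33 ± 0.21, and ended with TA84C04 at -1.38 ± 0.16.

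Extreme tiles mostly had neighbours on their own side. Of the measured wells beside the 161 tiles below -2, 90.4% were below 0, with a median of -1.71, and of those beside the 93 tiles above 2, 86.8% were above 0, with a median of 1.25. On the TB plates the shares were 84.6% and 90.1%. A tile below -2 with both neighbours above 0 occurred 3 times among 153 in TA64 to TA99 and 7 times among 124 on the TB plates. These values depend on how many tiles lay above 0 at all, 50.6% in TA64 to TA99 and 65.7% on the TB plates. They do not by themselves show a difference in how isolated extreme tiles were.

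Read along the plate rows and on from plate to plate, the tiles formed 422 runs above 0 and 442 runs below 0. A run is a stretch of consecutive wells whose mean ratio has the same sign, ended by a change of sign or a blank well. Runs above 0 had a mean length of 3.99 wells and runs below 0 of 3.72. Computed in each replicate by itself, the mean lengths were 3.44, 4.11, 3.85 and 3.99 above and 3.35, 3.81, 3.61 and 3.71 below, in replicates 1 to 4. Replicate 1 had the shortest runs on both sides. Many runs were single wells, 32.0% above and 32.6% below, but these held 8.01% and 8.76% of the tiles. Runs of 12 wells or more, a plate row or longer, numbered 24 above and 19 below and held 25.2% and 19.2% of the tiles on their side.

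The longest run above 0 held 33 wells, from TA75F08 at 1.05 ± 0.50 to TA76A04 at 0.96 ± 0.17, and so crossed a plate border. Its median was 0.78 ± 0.09 and its highest tile, TA75F11, had 1.79 ± 0.29. Of the 33 tiles 27 were called above 0, against 42.1% of all tiles of the array. A run above 0 holds only tiles with a mean above 0, so nothing is read from this count. The next run, of 29 wells from TA81G04 at 1.30 ± 0.15 to TA82A08 at 1.55 ± 0.16, was higher, with a median of 1.27 ± 0.12 and a peak at TA81G11 of 2.96 ± 0.59. It continued from the high plate TA81 into TA82, a plate whose own median was -0.14 ± 0.06.

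The longest run below 0 held 31 wells of TA95, from TA95A06 to TA95C12, with a median of -1.63 ± 0.25 and a lowest tile, TA95B02, of -3.41 ± 0.26. It began weakly, since TA95A06 had -0.16 ± 0.38 and an adjusted p of 0.349 in limma, and ended at TA95C12 with -1.27 ± 0.27. The second, of 24 wells from TA97E05 at -1.07 ± 0.07 to TA97G04 at -0.89 ± 0.22, was shallower, with a median of -0.99 ± 0.18 and a lowest tile, TA97F10, of -1.81 ± 0.43. Longer runs were also farther from 0. Single-well runs had a median level of 0.27 above and -0.34 below, and runs of 12 or more wells 1.04 and -1.08. As tiles nearer 0 change sign more readily, this is a description and not an independent property.

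The TB plates, the largest set of the array with 9456 tiles on 100 plates, were higher in the middle of their distribution. The median of TA64 to TA99 minus that of the TB plates was -0.46, -0.47, -0.49 and -0.45 in replicates 1 to 4, a mean of -0.47 ± 0.02, with medians of 0.01 ± 0.01 and 0.48 ± 0.02. The difference was negative in 4 of 4 replicates, and was -0.47 within both slide pairs. The level of these plates was known when they were chosen, so no test was made. The difference was not a uniform shift. At the 5th percentile TA64 to TA99 lay below the TB plates with a difference of -0.71 ± 0.10, and at the 25th percentile the difference was -0.43 ± 0.02. At the 75th it was -0.25 ± 0.07, and at the 95th -0.01 ± 0.07, with 2 replicates on either side. The upper ends of both distributions thus lay at the same level within the spread of the replicates, 1.83 ± 0.12 and 1.84 ± 0.06 at the 95th percentile. Of the tiles of TA64 to TA99, 19.3% ± 0.96 were below -1 and 22.1% ± 2.79 above 1, against 9.64% ± 1.09 and 30.6% ± 1.85 on the TB plates (means over replicates). The SD over tiles was 1.19 ± 0.04 in TA64 to TA99 and 1.01 ± 0.03 on the TB plates.

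Plate levels were lower and wider in TA64 to TA99 too. Plate medians above 0 in every replicate were found on 17 of 36 plates, against 80 of 100 TB plates, and medians below 0 in every replicate on 13 of 36 against 10 of 100. A median below -0.5 in every replicate was found on 3 plates of TA64 to TA99 and on 0 TB plates. The SD between plate medians was 0.49 ± 0.07 in TA64 to TA99 and 0.38 ± 0.03 on the TB plates. Of 288 plate rows, 17 (5.90%) had a median below -1 in every replicate, against 6 of 800 (0.75%) on the TB plates, and 13 (4.51%) a median above 1, against 84 (10.5%).

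Runs differed from those of the TB plates on both sides of 0. The mean length above 0 was 3.85 ± 0.29 in TA64 to TA99 and 5.48 ± 0.14 on the TB plates (means over replicates), and below 0 it was 3.62 ± 0.20 and 2.90 ± 0.09. The longest runs held 33 wells above and 31 below in TA64 to TA99, against 57 and 32 on the TB plates. A longest run also depends on the number of runs. There were 422 above and 442 below in TA64 to TA99, against 1082 on either side on the TB plates. Blank wells, which end a run, were 3.67% of wells against 1.5%. What these differences add to the run lengths was not tested. A sign run depends on where 0 lies in the distribution. Counted about the own median of each set, the mean lengths were 3.81 ± 0.27 and 3.57 ± 0.12 above and 3.63 ± 0.23 and 3.47 ± 0.11 below, in TA64 to TA99 and on the TB plates in that order. Those differences were smaller than the SD over the replicates of TA64 to TA99, an SD that does not pair the sets by replicate. By replicate, the lengths above were 3.45, 4.09, 3.83 and 3.89 against 3.47, 3.74, 3.52 and 3.57. Below they were 3.33, 3.89, 3.61 and 3.71 against 3.38, 3.63, 3.43 and 3.46. Runs of TA64 to TA99 were thus slightly the shorter in replicate 1 and the longer in the other replicates, on both sides. The longest runs in that count held 33 wells above and 31 below in TA64 to TA99, against 24 and 37 on the TB plates. The count about the own medians was added after the data were seen.

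**Figure D4:**
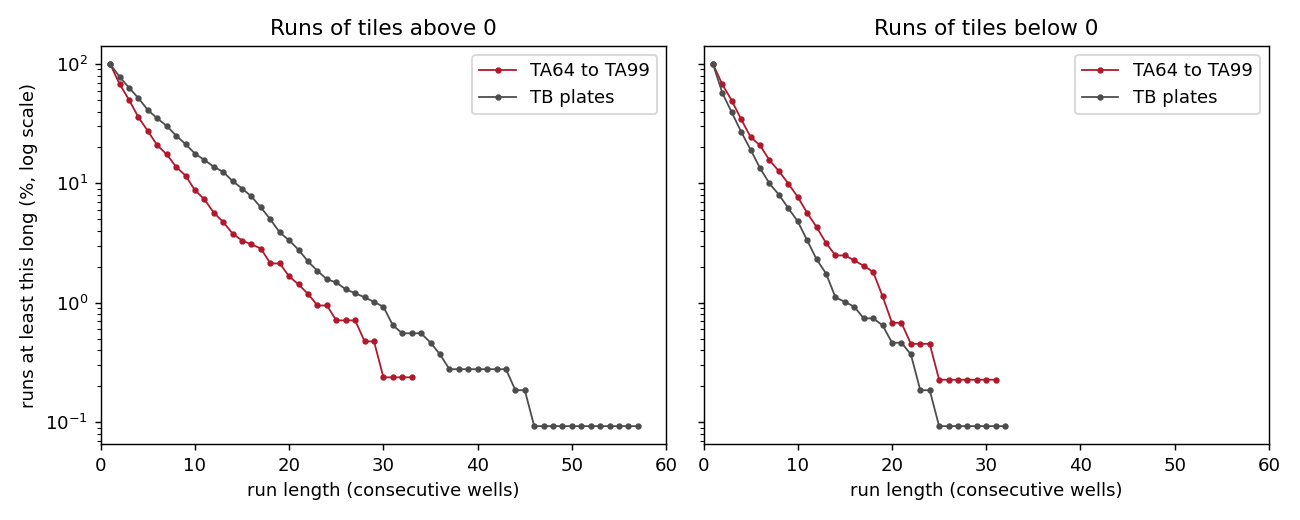
Share of runs, in percent on a log scale, that are at least as long as the number of consecutive wells on the horizontal axis, for TA64 to TA99 (red) and TB plates (grey), with runs above 0 on the left and below 0 on the right. Runs above 0 are shorter in TA64 to TA99 (longest 33 against 57 wells), while runs below 0 lie higher over most lengths and end at 31 against 32 wells. Counted about the own median of each set, which is not drawn, the longest were 33 against 24 above and 31 against 37 below. The longest runs are not on equal footing, since TA64 to TA99 has 422 runs above and 442 below 0 and the TB plates 1082 on either side.

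Tiles in adjoining wells were alike to a similar degree in both. At a distance of 1 well the log2 ratios correlated at 0.62 ± 0.02 in TA64 to TA99 and 0.60 ± 0.01 on the TB plates (Pearson, mean and SD of the 4 replicates; tiles share arrays and are not independent). At 2 wells it was 0.43 ± 0.02 and 0.37 ± 0.02, at 3 wells 0.30 ± 0.02 and 0.24 ± 0.02, and at 12 wells 0.08 ± 0.01 and 0.10 ± 0.01. At 96 wells, the same well of the next plate, it was -0.01 ± 0.01 and 0.01 ± 0.01. Between these distances a weak correlation remained. It was 0.074 ± 0.005 at 24 wells and 0.068 ± 0.015 at 48 wells in TA64 to TA99. On the TB plates it was 0.061 ± 0.007 and 0.038 ± 0.003. The likeness was therefore strongest over a few wells, weak at longer distances within a plate and about 0 at the same well of the next plate. Counted down the columns of a plate instead, adjoining wells of TA64 to TA99 correlated at 0.09 ± 0.02. Likeness along the rows carried over the plate border: on the mean ratios, the last well of a plate and the first of the next correlated at 0.76 over 35 pairs, against 0.62 over 2945 pairs within plate rows. On the TB plates these values were 0.54 over 93 pairs and 0.61 over 8543.

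**Figure D5:**
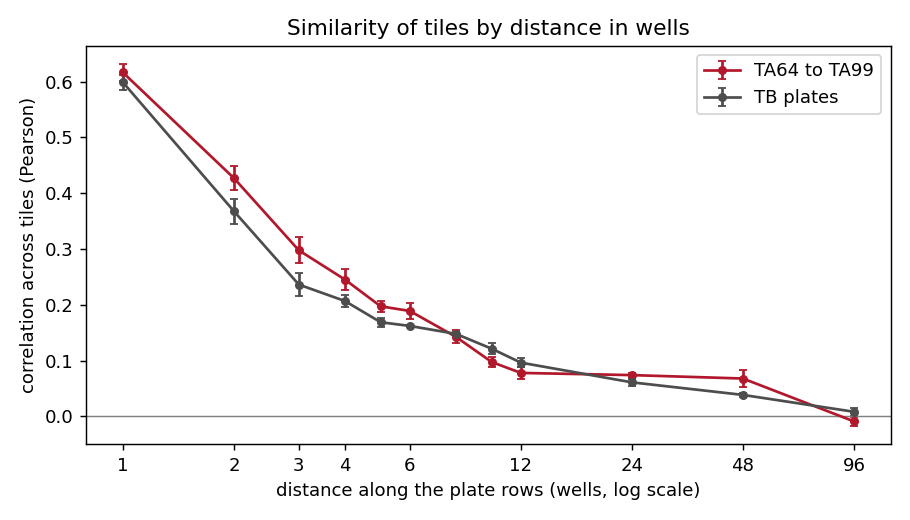
Pearson correlation of the log2 ratios of tiles a given number of wells apart along the plate rows (log axis), as the mean and SD over 4 replicates, for TA64 to TA99 (red) and TB plates (grey). Both sets start near 0.6 at 1 well, TA64 to TA99 lies above the TB plates at 2 and 3 wells, and both reach about 0 at 96 wells.

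Of the remaining plates, 2 stretches outside the blocks of low plates were compared as well. TC00 to TC13, with 1266 tiles on 14 plates, had a median of 0.42 ± 0.09, so that TA64 to TA99 lay lower by a difference of -0.41 ± 0.10. TA01 to TA20, with 1866 tiles on 20 plates, had a median of 0.16 ± 0.04, a difference of -0.15 ± 0.03. The low end set these 2 apart: at the 5th percentile TA64 to TA99 was lower than TC00 to TC13, by a difference of -0.66 ± 0.16, and 1.01 ± 0.18 higher than TA01 to TA20. On TA01 to TA20, 18 of 160 plate rows (11.25%) had a median below -1 in every replicate. On TC00 to TC13 it was 2 of 107 (1.87%). Mean runs over replicates were 4.02 ± 0.28 wells above 0 and 3.28 ± 0.13 below on TA01 to TA20. On TC00 to TC13 they were 4.92 ± 0.37 and 2.76 ± 0.12. Low plate rows and short runs above 0 were thus not particular to TA64 to TA99. None of these differences has a test.

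The replicates fell into like pairs on TA64 to TA99. Across its tiles replicates 1 and 3 correlated at 0.971 and replicates 2 and 4 at 0.983, while the remaining pairs reached 0.917 to 0.924. The titles give replicates 1 and 2 one shared slide number and 3 and 4 another. These slide pairs were compared as 1 and 2 minus 3 and 4, a contrast that the choice of plates did not use. At an adjusted p under 0.05, limma called 0 of the 3329 tiles and 0% of all tiles. At an unadjusted p under 0.05 it called 9 (0.27%), against 28 of all 21285 tiles (0.13%). Each arm of that comparison holds 1 replicate of either like pair, which widens the spread within the arms, so the count of 0 does not show that the slide pairs were alike. The most negative differences were at TA91B01 and TA69A07. TA91B01 had 1.52, -0.33, 1.83 and 1.99 in replicates 1 to 4, with replicate 2 apart, and its adjusted p against 0, 0.0173 in limma, was 0.0678 without replicate 1 and 0.0652 without replicate 3. The most positive were at TA96D07, with 1.78, 1.53, 0.38 and 1.16, and TA91H11, with -0.94, -0.33, -0.82 and -2.04. The tile with the largest SD was TA79E02, with -1.09, 1.34, -0.48 and 1.27, where replicates 1 and 3 were below 0 and 2 and 4 above. TA85F04 had 1.98, 3.31, 0.79 and 3.04, with 2 and 4 again the higher. Such tiles were rare: 95% of the tiles had an SD of 0.56 or less.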

How the data were processed

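H3K4me2 IP DNA and input DNA were hybridised on 8 two-colour arrays, 4 dye swaps of 1 group. The deposited values are log2 ratios of the channels in a single table, as far as the values show, since the log base is not stated: of 57 values under 0.01 in size in TA64 to TA99, 86.0% were whole multiples (within 0.05 of a step) of the floating-point step that doubles have between 8 and 16, where log2 intensities commonly lie. How the authors corrected, normalized and averaged the signals, and the direction, is not stated in the labels or the table. The 39 rows with other names were blank. Each replicate was centred on the median of the 21285 tiles named by plate and well, with no loess or quantile normalization. Each tile was tested against 0, and slide pairs against each other, with limma's lmFit and eBayes (limma 3.58.1, R 4.3.3; two-sided p adjusted by Benjamini-Hochberg over all tiles; threshold 0.05). Other steps used Python 3.11.15, numpy 2.4.6, pandas 2.3.3, scipy 1.17.1 and matplotlib 3.10.9. Tiles were named by rule: the 8 highest and 8 lowest, the extremes of the 3 highest and 3 lowest plates, the ends and extremes of the 2 longest runs on each side, the 3 largest steps each way, the 3 largest SDs and the 2 largest slide-pair differences each way. TA71G08, tiles beside these, and the tiles of the TA84 block were added after their values were seen. The plates, lists and tests were chosen with earlier results of these data known. A missing well ended a run. Alternatives were values as deposited, mode centring, quantile normalization, limma treat at 1.5-fold, a robust fit with a trend, the slide pair as a random block, other run and order rules, and each replicate left out.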

Additional observations from a re-analysis of the deposited data

Results flagged for a closer look

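Of 89 results with a value per replicate on TA64 to TA99, 4 had 1 replicate far from the other 3 by Dixon's test, with a gap above 0.83 of the range. For independent results chance gives about 1 in 20, and 4 of 89 is 4.49%. The 89 results share arrays, and some tiles, TA69A07 among them, were listed for a large SD or slide-pair difference. These rates are thus only roughly comparable. For the median of plate TA85 the gap was 0.932 of the range, with replicate 1 at -0.24 and the others all at -0.33. For TA84 it was 0.896, with replicate 3 at -1.0 and the others between -0.84 and -0.82. For TA66 it was 0.857, with replicate 4 at -0.18 and the others between -0.34 and -0.31. For tile TA69A07 it was 0.897, with replicate 1 at -1.72 and the others at 0.52, 0.39 and 0.29, so that its mean of -0.13 describes no replicate. The 3 plates kept the sign of their median in every replicate.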

How the results depend on the processing

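As deposited and on the mode, the median of TA64 to TA99 was -0.58 and -0.83, the number of tiles called above 0 was 604 and 562, and the plates above 0 in every replicate were 0 in both, each in place of 0.01, 1342 and 17. On the mode 2142 tiles were called below 0. The shares of the whole array called above and below were 19.3% and 52.8% as deposited, and 17.2% and 63.5% on the mode. Mean runs above 0 were then 2.78 and 2.28 wells, with longest runs of 17 and 10, and runs below 0 averaged 4.94 and 5.42. All of this follows from moving 0. At 1.5-fold or more, 836 tiles were called above and 733 below, since a size is asked for. Over the whole array that setting called 25.9% above and 28.6% below. The difference from the TB plates was -0.37 with means of tiles and -0.43 with plate medians; the cause was not tested. In column order, mean runs were 2.20 above and 2.14 below and the neighbour correlation 0.091, since other wells adjoin. Runs of called tiles averaged 3.32 and 3.05, runs of tiles with the same sign in all 4 replicates 3.26 and 3.08, and skipping blank wells gave 4.13 below 0, by construction. Without each replicate in turn, tiles called above 0 ranged from 1259 to 1304 and called below from 1217 to 1259, the difference from the TB plates from -0.48 to -0.46, mean runs from 3.88 to 4.04 above and 3.59 to 3.76 below, and plates above 0 from 17 to 19. Of all tiles of the array, these fits called 40% to 40.7% above and 40.1% to 40.8% below. Slide-pair calls stayed at 0 in every alternative run; fits without a replicate have an arm of 1 sample, assumed to vary like the other. Requiring values in at least 3 replicates left the same tiles. The slide-pair block correlation was -0.79, so that fit (1521 called above, 1483 called below) understates the error. Its shares over the whole array were 46.5% above and 46.3% below. The main fit took the 4 replicates as independent, although replicates 1 and 3, and 2 and 4, were like pairs. Its error may thus be understated too. Of the 45 named tiles past the threshold, none changed sign in the 10 alternatives, and 12 of the results fell short of it, at 6 tiles near 1 in size or of large SD. No paired analysis was possible because all replicates form 1 group, with IP set against input within each array. Signal over background is unknown.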

Other observations

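The step from a low to a high plate row on TA71 lies at the border of rows G and H, but the tiles near it do not change there alone. TA71G12, the last well of row G, was at -1.42 ± 0.36 and TA71H01, the next well, at 1.20 ± 0.29, while TA71G09 was at 0.32 ± 0.19 and TA71G10 at -2.29 ± 0.23, and TA71H09 at 0.26 ± 0.30 and TA71H10 at -2.02 ± 0.29. Sharp changes between high and low thus occurred within rows as well as between them on this plate.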
